A study of Mus musculus with 12 samples.

Results

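The p200 cluster of mouse chromosome 1 was examined as the 10 genes Ifi202b, Ifi203, Ifi204, Ifi205, Ifi207, Ifi208, Ifi209, Ifi211, Ifi213 and Ifi214. They were chosen by symbol, as members of the HIN-200 family that the table of expression values lists, with earlier results of these data known. All 10 were found among the 38739 symbols of the table, and all 10 passed the filter on low values (at least 1 TPM in at least 3 of 12 samples) that left 9855 genes for testing. Ifi208, Ifi213 and Ifi214 reached 1 TPM only in LPS samples, and Ifi202b only in WT samples, so these 4 entered the tests through the groups in which they are high.

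RNA was taken from bone marrow-derived macrophages of male C57BL/6J mice aged 8 weeks, either wild-type (WT) or cGAS-/-, a whole-body knockout of the cytosolic DNA sensor cGAS that the methods place in the C57BL/6J background. WT mice were purchased and cGAS-/- mice came from another laboratory, so genotype and colony cannot be told apart. Cells were left untreated (UT) or stimulated with lipopolysaccharide (LPS), a bacterial cell wall component, so that each of the 4 combinations of genotype and treatment has 3 samples. The sample labels state 100 ng/mL LPS for 1 h, whereas the methods of the study state 150 ng/mL for 24 h, and which of these applies is not known. According to the study, samples within a group are technical replicates, so p-values here measure only the spread between these samples and not that between mice.

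The p200 (HIN-200 or PYHIN) proteins carry a HIN domain, which binds DNA, usually together with a pyrin domain, which joins other pyrin proteins such as those of inflammasomes. Most of their genes are induced by interferon: LPS acting through Toll-like receptor 4 leads macrophages to secrete interferon-β, which acts through its receptor on genes that carry the interferon-stimulated response element (ISRE). Cytosolic DNA that cGAS detects reaches interferon-β by another route, through STING. The best known members are Ifi204 (p204), a nuclear and cytosolic DNA-binding protein often set beside human IFI16, and Ifi202b (p202), which has HIN domains but no pyrin domain, antagonises the DNA sensor AIM2 and is known to vary in level between inbred mouse strains.

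In GRCm39, the build that the authors used, the 10 genes lie within 512 kb of chromosome 1 (173347283 to 173859456), 8 on the minus strand and 2, Ifi208 and Ifi209, on the plus strand. From low to high coordinates they run Ifi214, Ifi213, Ifi209, Ifi208, Ifi207, Ifi204, Ifi211, Ifi203, Ifi202b and Ifi205, and Mndal is the only other protein-coding gene in the span. Cgas itself is on chromosome 9. The stretch around the start of each gene's canonical GENCODE M39 transcript, from 250 bases before to the first 50 bases of the transcript, was searched on both strands for an ISRE core, GAAA followed by any 2 bases and GAAA again, and for the gamma-activated sequence (GAS), TTCNNNGAA, where N is any base. No stretch held overlapping matches of both.

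The ISRE core was found at 8 of the 10 genes and at 3.836% of 21770 protein-coding gene starts, and the GAS at 1 of 10, Ifi202b, and at 8.815% of starts. Upstream letters are nearly alike in some genes, such as Ifi204 with Ifi211 and Ifi208 with Ifi213, so the 8 are not separate occurrences. The 7 windows below, from 85 to 16 bases before the start, hold the core in capitals and are shown because its letters and spacing can be compared between genes. In gene order they cover chr1:173363539-173363608, chr1:173426897-173426966, chr1:173501156-173501225, chr1:173569399-173569468, chr1:173594626-173594695, chr1:173740628-173740697 and chr1:173770052-173770121. Ifi208 is on the plus strand and the other 6 are on the minus strand, and each is written 5′ to 3′ along its gene.
Ifi214: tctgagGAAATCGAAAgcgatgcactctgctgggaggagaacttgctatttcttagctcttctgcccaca
Ifi213: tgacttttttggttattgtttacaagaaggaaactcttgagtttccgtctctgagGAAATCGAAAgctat
Ifi208: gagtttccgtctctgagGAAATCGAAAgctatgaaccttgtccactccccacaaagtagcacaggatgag
Ifi207: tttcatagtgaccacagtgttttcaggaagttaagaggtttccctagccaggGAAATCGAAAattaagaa
Ifi204: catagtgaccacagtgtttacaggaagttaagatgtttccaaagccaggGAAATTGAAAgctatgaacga
Ifi211: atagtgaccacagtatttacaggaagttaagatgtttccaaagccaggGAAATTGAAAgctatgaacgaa
Ifi203: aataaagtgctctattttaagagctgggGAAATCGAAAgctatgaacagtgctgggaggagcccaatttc
The core reads GAAATCGAAA at Ifi214, Ifi213, Ifi208, Ifi207 and Ifi203, and GAAATTGAAA at Ifi204 and Ifi211. Its first base lies 79 (Ifi214), 30 (Ifi213), 68 (Ifi208), 33 (Ifi207), 36 (Ifi204), 37 (Ifi211) and 57 (Ifi203) bases before the start. Ifi205 carries GAAATTGAAA from base 2 of its annotated transcript, on the minus strand at chr1:173859442-173859471.
Ifi205: ggtttcccaggccaggGAAATTGAAAgcta
The 2 genes without the core are shown for comparison, Ifi209 over the same window (chr1:173458295-173458364, plus strand) and Ifi202b from 150 to 16 bases before its start (chr1:173810430-173810564, minus strand), with its GAS in capitals.
Ifi209: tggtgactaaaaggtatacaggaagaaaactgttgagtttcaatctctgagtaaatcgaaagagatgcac
Ifi202b: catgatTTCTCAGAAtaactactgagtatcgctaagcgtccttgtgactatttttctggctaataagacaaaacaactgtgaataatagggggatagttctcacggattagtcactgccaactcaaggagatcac
Ifi209 has a stretch 34 bases before its start that differs from the core by G1T, counted from 1 at the first base of the core. A stretch with the core or 1 of its fixed letters changed was present at 36.073% of all starts. Neither of the 2 annotated transcript starts of Ifi209 nor the single one of Ifi202b held the core. Ifi203 held it at 13 of 17 annotated starts, Ifi213 at 4 of 6 and Ifi208 at 3 of 4. Ifi204, Ifi205, Ifi207, Ifi211 and Ifi214 held it at all of theirs. A match describes letters only, and binding was not measured. The letters are those of the GRCm39 reference, and whether either colony carries them was not tested.

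**Figure D1:**
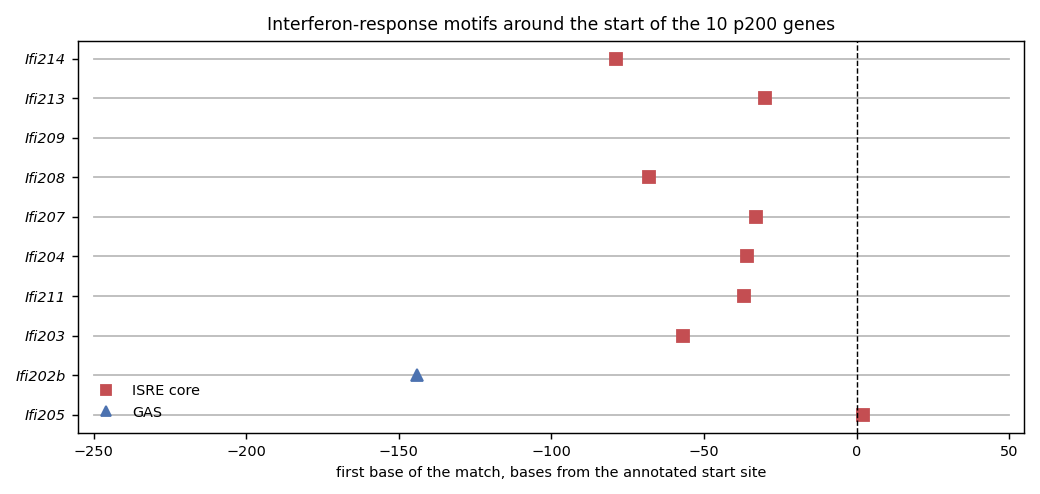
Position of the ISRE core (squares) and the GAS (triangles) around the annotated start of each p200 gene, in bases from the start site (dashed line), with genes from low to high coordinate. Squares lie between 79 bases before and 2 bases after the start in 8 genes, Ifi209 has no mark, and the only GAS is 144 bases before Ifi202b.

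Levels are in TPM, transcript abundances corrected for length, taken here as the authors' mean over the transcripts listed for a symbol, and differences are on the log2(TPM + 1) scale, which understates the change of low genes. TPM keeps no read depth, so the depth behind a value is unknown. All values of a column add up to 709802 in WT LPS replicate 3, against 447189 to 503156 for the remaining 11 columns. The factors by which median-of-ratios scaling would divide each sample were 0.75, 1.10 and 0.40 in the WT LPS replicates and 0.99 to 1.24 elsewhere, so the WT LPS samples stand apart from one another, and they enter the estimate of the spread in every fit of all 12 samples. Cgas, the targeted gene, was listed at 1.19 to 3.25 TPM in the 6 WT samples and at 0.0703 to 0.291 TPM in the 6 cGAS-/- samples, and which part of the gene the knockout removes is not given in the sources used here. Of 12 macrophage markers 10 are listed and summed to between 21144 and 36917 TPM in all samples, against at most 353 TPM for neutrophil, 134 TPM for B cell, 26.5 TPM for erythroid, 2.23 TPM for dendritic cell and 0.934 TPM for T and NK cell markers (Adgre1 and Csf1r were not analysed here). In bulk RNA, fewer cells of a type and less RNA per cell cannot be told apart.

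In untreated WT macrophages the cluster was dominated by a few genes. Ifi207 was the highest at 123 ± 5.07 TPM (SD, n = 3, as for all ± below on levels), followed by Ifi202b at 65.5 ± 5.40, Ifi204 at 41.7 ± 5.94 and Ifi211 at 38.5 ± 6.92 TPM, and the samples of the last pair overlapped. Ifi209, Ifi203 and Ifi205 were at 13.4 ± 1.26, 6.37 ± 0.506 and 2.10 ± 0.554 TPM. Ifi213, Ifi208 and Ifi214 were each below 1 TPM in all 3 samples. Apart from Ifi204 and Ifi211, neighbours in this order did not overlap. The order depends on how transcripts were averaged, since values of Ifi203 and Ifi208 became short decimals when multiplied by 9 and by 3. Multiplied so, the means would be 57.4 TPM for Ifi203, between Ifi202b and Ifi204 as listed, and 1.41 TPM for Ifi208. The other genes were left as listed. An average that ends in short decimals would not show this way, so their places are uncertain too.

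The summed level of the 10 genes was 292 ± 17.4 TPM in WT UT and 1769.6 ± 698 TPM in WT LPS samples. In cGAS-/- samples it was 180.5 ± 6.03 TPM untreated and 1190.0 ± 49.7 TPM with LPS, and its make-up differed as well. Ifi207 held 41.4% to 43.1% of the sum in WT UT and 56.3% to 57.7% in cGAS-/- UT samples, but 8.09% to 10.0% and 7.94% to 8.29% with LPS. Ifi211 went from 10.9% to 15.4% of the sum in WT UT to 28.7% to 32.1% in WT LPS samples, and from 13.3% to 14.0% to 41.3% to 43.4% in cGAS-/- samples. Ifi202b held 20.9% to 23.6% of the sum in WT UT, 14.3% to 22.0% in WT LPS and at most 0.451% in cGAS-/- samples. Shares are set within a sample and do not depend on how samples are scaled, but sums and shares depend on the averaging over transcripts as the order does.

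**Figure D2:**
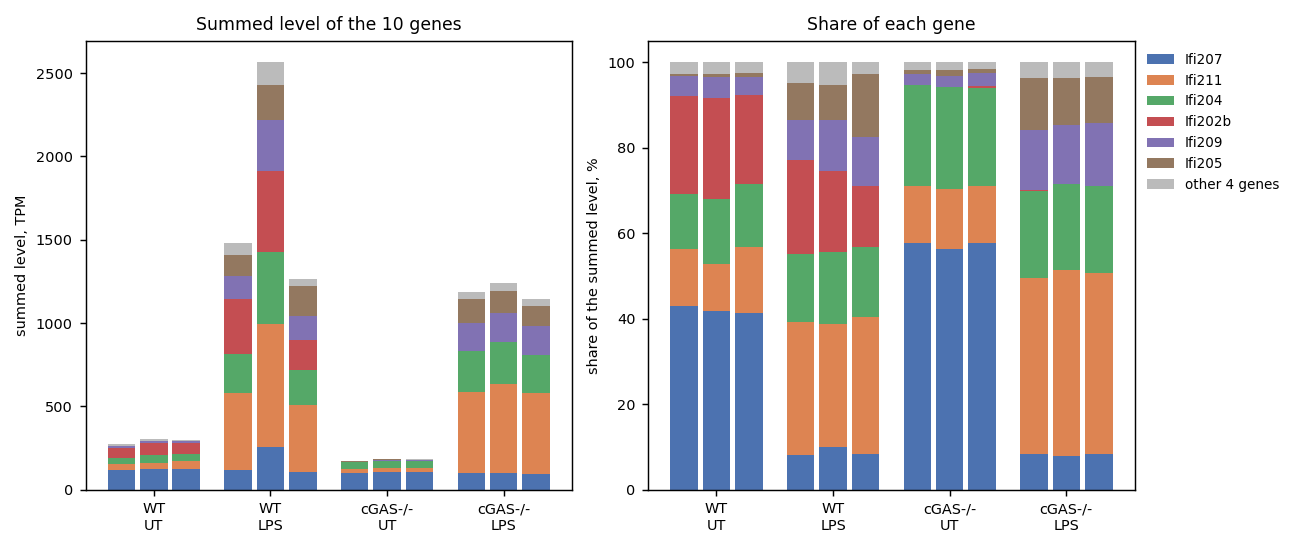
Summed level of the 10 p200 genes in TPM (left) and the share of each gene in percent (right), with 1 bar per sample and 3 samples per group. The WT LPS bars run from 1262 to 2566 TPM and the cGAS-/- LPS bars from 1142 to 1241 TPM, and the Ifi202b share reaches 23.6% in WT but is at most 0.451% in cGAS-/- samples.

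With LPS the order of levels was Ifi211, Ifi202b, Ifi204, Ifi209, Ifi205 and Ifi207 in WT, with each of these overlapping the next, and then Ifi213, Ifi208, Ifi203 and Ifi214, which also overlapped one another in turn. In cGAS-/- LPS samples the order was Ifi211, Ifi204, Ifi209, Ifi205, Ifi207, Ifi213, Ifi203, Ifi208, Ifi214 and Ifi202b, with no overlap between neighbours. Multiplied by 9 as above, the mean of Ifi203 would be 190.4 TPM in WT LPS and 127 TPM in cGAS-/- LPS samples.

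LPS raised 9 of the 10 genes in WT cells, all but Ifi207, at an adjusted p under 0.05 in limma, where 4.86% of the 9855 genes tested were higher at that threshold. Of the 9, Ifi208, Ifi213 and Ifi214 passed the filter on low values through LPS samples alone. Without a filter 9 were higher too, against 1.79% of all genes. With the filter and a log2 fold change beyond 2 as well, the threshold of the methods, 8 of 10 were called, all but Ifi203 and Ifi207, against 1.75% of genes. Without WT LPS replicate 2 there were 7, since Ifi202b then had a log2 fold change of 1.88 (adjusted p = 0.00104). Every WT LPS sample was above every WT UT sample for the same 9 genes, against 5.71% of genes. The median log2 fold change was 3.51 over the 10 genes and -0.55 over all genes tested. Scaling by median-of-ratios moved the latter to -0.010 and the former to 4.08.

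Ifi205, which encodes a protein with pyrin and HIN domains, had the largest change of the 10 in both genotypes on the log2(TPM + 1) scale. By the ratio of mean TPM, LPS over UT, Ifi214 was above it in WT cells (85.9 against 83.0), and Ifi208 (239.6) and Ifi213 (77.7) were above it in cGAS-/- cells (67.4), all 3 from untreated levels below 1 TPM. Ifi205 was listed at 1.49, 2.22 and 2.58 TPM in WT UT and at 126, 210.3 and 186 TPM in WT LPS samples. All 3 LPS samples lay far above all 3 untreated ones, with a log2 fold change of 5.80 ± 0.25 (SE, adjusted p = 3.87e-07). In cGAS-/- cells the values were 1.94, 2.29 and 1.74 TPM untreated and 144, 136 and 122 TPM with LPS. These samples did not overlap either, and the log2 fold change was 5.50 ± 0.25 (SE, adjusted p = 2.32e-07).

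Ifi211 reached the highest level with LPS. It went from 36.1, 33.1 and 46.3 TPM to 460.3, 738 and 405 TPM in WT cells, and from 23.3, 25.9 and 24.2 TPM to 490.1, 539 and 484 TPM in cGAS-/- cells. LPS and untreated samples were apart in both genotypes, WT LPS replicate 2 was the highest of all 12, and the log2 fold changes were 3.73 ± 0.26 (SE, adjusted p = 4.62e-06) in WT and 4.31 ± 0.26 (SE, adjusted p = 1.62e-06) in cGAS-/- cells. Of the longest Ifi211 transcript, 95.2% is matched at 95% identity or more, over at least 100 bases, by transcripts of Mndal, Ifi205 or Ifi204, so kallisto may have divided reads between these genes and the value of each is uncertain.

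Ifi204, the DNA-binding p204, was at 35.0, 46.1 and 44.1 TPM in WT UT and 237, 431 and 206 TPM in WT LPS samples. In cGAS-/- cells it was at 40.7, 44.0 and 41.9 TPM untreated and 242, 249.6 and 231 TPM with LPS. The untreated samples of both genotypes shared a range and so did the LPS samples, and the log2 fold change was 2.71 ± 0.28 (SE, adjusted p = 6.23e-05) in WT and 2.49 ± 0.28 (SE, adjusted p = 1.20e-04) in cGAS-/- cells. Transcripts of Ifi211 match 61.4% of the longest Ifi204 transcript.

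Ifi209, which together with Ifi202b lacks the ISRE core, also rose in both genotypes. It was listed at 12.9, 14.9 and 12.5 TPM and then 139, 310.4 and 143 TPM in WT cells, and at 4.09, 5.10 and 5.56 TPM and then 169, 172 and 169.8 TPM in cGAS-/- cells. The cGAS-/- LPS samples lay within a few TPM of each other while WT LPS replicate 2 was far above replicates 1 and 3. The log2 fold changes were 3.68 ± 0.31 (SE, adjusted p = 1.39e-05) in WT and 4.86 ± 0.31 (SE, adjusted p = 2.17e-06) in cGAS-/- cells. Transcripts of Ifi214 match 98.7% of the longest Ifi209 transcript, and the value of this pair is uncertain for the same reason.

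Ifi213, Ifi208 and Ifi214 went from below 1 TPM to clear expression. Ifi213 rose to between 7.92 and 41.1 TPM in WT and between 19.2 and 23.0 TPM in cGAS-/- cells, with log2 fold changes of 3.56 and 4.12. Ifi208 was listed at 11.3, 37.1 and 15.7 TPM in WT LPS samples and 5.64, 5.54 and 4.58 TPM in cGAS-/- LPS samples, with log2 fold changes over the untreated samples of 3.76 and 2.61. Ifi214 was listed at 15.01, 23.6 and 4.44 TPM and 2.14, 2.84 and 2.28 TPM in the same groups. LPS samples were above untreated ones for all 3 genes in both genotypes. For Ifi214 in cGAS-/- cells the log2 fold change was 1.69 ± 0.42 (SE, adjusted p = 0.0174), short of the fold threshold, and the call was lost in 7 of 22 alternative settings. Each of Ifi208 and Ifi213 has a stretch that the other matches, 42.5% of the longest transcript of the former and 33.2% of the latter.

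Ifi203 passed the test in both genotypes but not the fold threshold. It rose from 6.37 ± 0.506 to 21.2 ± 12.8 TPM in WT cells, where the LPS samples ran from 8.41 to 34.1 TPM, and from 2.86 ± 0.255 to 14.1 ± 0.656 TPM in cGAS-/- cells. The log2 fold changes were 1.39 ± 0.38 (SE, adjusted p = 0.0184) and 1.97 ± 0.38 (SE, adjusted p = 0.00404). The WT call was lost in 4 of 23 alternative settings, among them those that leave out WT UT replicate 1 or 3.

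Ifi207 was the highest gene before LPS and the only one that did not reach an adjusted p under 0.05 with LPS in WT cells. Its window, printed above, holds the core 33 bases before the start. Its levels were 117, 127 and 124 TPM in WT UT and 119.9, 257 and 105 TPM in WT LPS samples. The LPS samples lay on both sides of the untreated ones, with a log2 fold change of 0.27 ± 0.31 (SE, adjusted p = 0.508). In cGAS-/- cells the levels were 100.2, 104 and 105 TPM untreated and 97.8, 98.5 and 94.7 TPM with LPS. Here all LPS samples were slightly lower, with a log2 fold change of -0.090 ± 0.31 (SE, adjusted p = 0.909). After median-of-ratios scaling the WT log2 fold change was 1.09 (adjusted p = 0.00212), so whether Ifi207 rose in WT cells depends on the scaling. No other gene matches its longest transcript at 95% identity.

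In cGAS-/- cells LPS raised 8 of the 10 genes at an adjusted p under 0.05, all but Ifi207 and Ifi202b, where 5.56% of genes were higher. Among the 8, Ifi208, Ifi213 and Ifi214 passed the filter on low values through LPS samples alone. Without a filter 7 were higher, against 2.03% of all genes. With the filter, 6 of the 8 also passed the fold threshold (Ifi213, Ifi209, Ifi208, Ifi204, Ifi211 and Ifi205), against 2.34% of genes. The same 8 had every LPS sample above every untreated sample, against 17.2% of genes. The median log2 fold change was 2.55 over the 10 genes and -0.22 over all genes. The comparisons of LPS with UT in WT and in cGAS-/- cells share no samples, but both use the spread estimated over all 12 samples. Without WT LPS replicate 3, 8 of the 10 genes were higher in cGAS-/- cells, against 10.8% of all genes. From the samples compared alone, 8 were higher, against 14.6%.

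**Figure D3:**
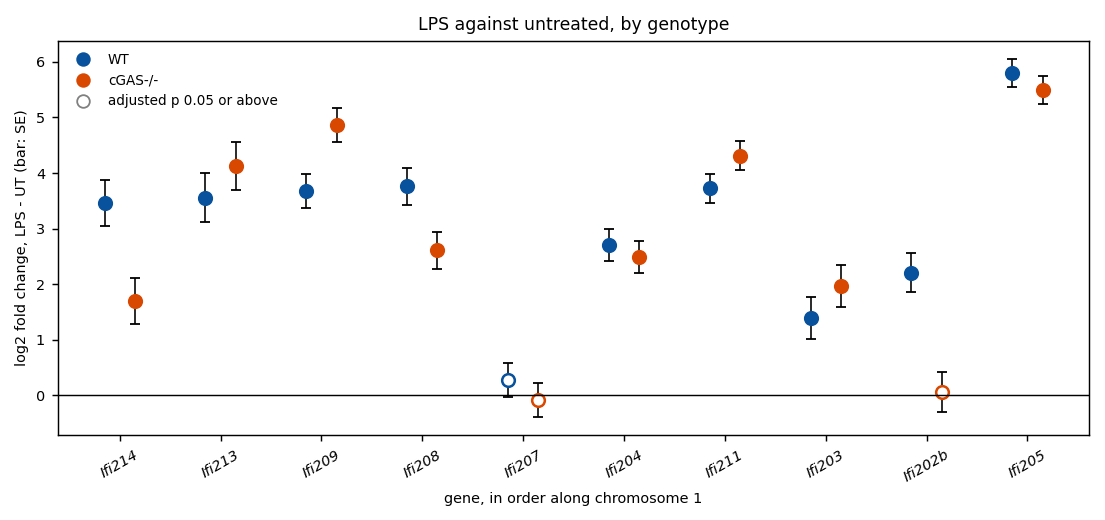
Log2 fold change of LPS against UT for each p200 gene in WT (blue) and cGAS-/- (orange) cells on the log2(TPM + 1) scale, with bars for the SE and open circles for an adjusted p of 0.05 or above. WT values span 0.27 to 5.80 and cGAS-/- values -0.090 to 5.50, with Ifi207 near 0 in both and Ifi202b near 0 in cGAS-/- cells.

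Ifi202b separated the genotypes. It was listed at 62.1, 71.8 and 62.7 TPM in WT UT and 0.349, 0 and 0.823 TPM in cGAS-/- UT samples. With LPS it was listed at 326, 484 and 181 TPM in WT and 0.629, 0.447 and 0.178 TPM in cGAS-/- samples. The highest of the 6 cGAS-/- samples was 0.823 TPM and the lowest of the 6 WT samples 62.1 TPM. Ifi202b is a gene known to differ between strains, the groups also differ in colony, and whether both colonies share the strain background at this locus was not tested.

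The ratio of mean TPM was 168 in untreated and 791 in LPS samples, WT over cGAS-/-, with cGAS-/- values so near 0 that these ratios carry a large and unknown counting error. The log2 fold change of cGAS-/- against WT was -5.62 ± 0.35 (SE, adjusted p = 1.81e-05) untreated and -7.77 ± 0.35 (SE, adjusted p = 1.67e-06) with LPS. Both calls were kept in all 23 alternative settings. LPS raised Ifi202b in WT cells by a log2 fold change of 2.21 ± 0.35 (SE, adjusted p = 0.00103), lowest in replicate 3, and in cGAS-/- cells the log2 fold change was 0.058 ± 0.35 (SE, adjusted p = 0.953). The only transcripts of other genes that match the one annotated Ifi202b transcript are of the neighbouring pseudogene Gm18445, over 8.995% of its length. Gm18445 was itself listed at 0.185 to 4.53 TPM in WT samples, at 0 in all cGAS-/- UT samples and at 0.261 to 0.934 TPM in cGAS-/- LPS samples.

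**Figure D4:**
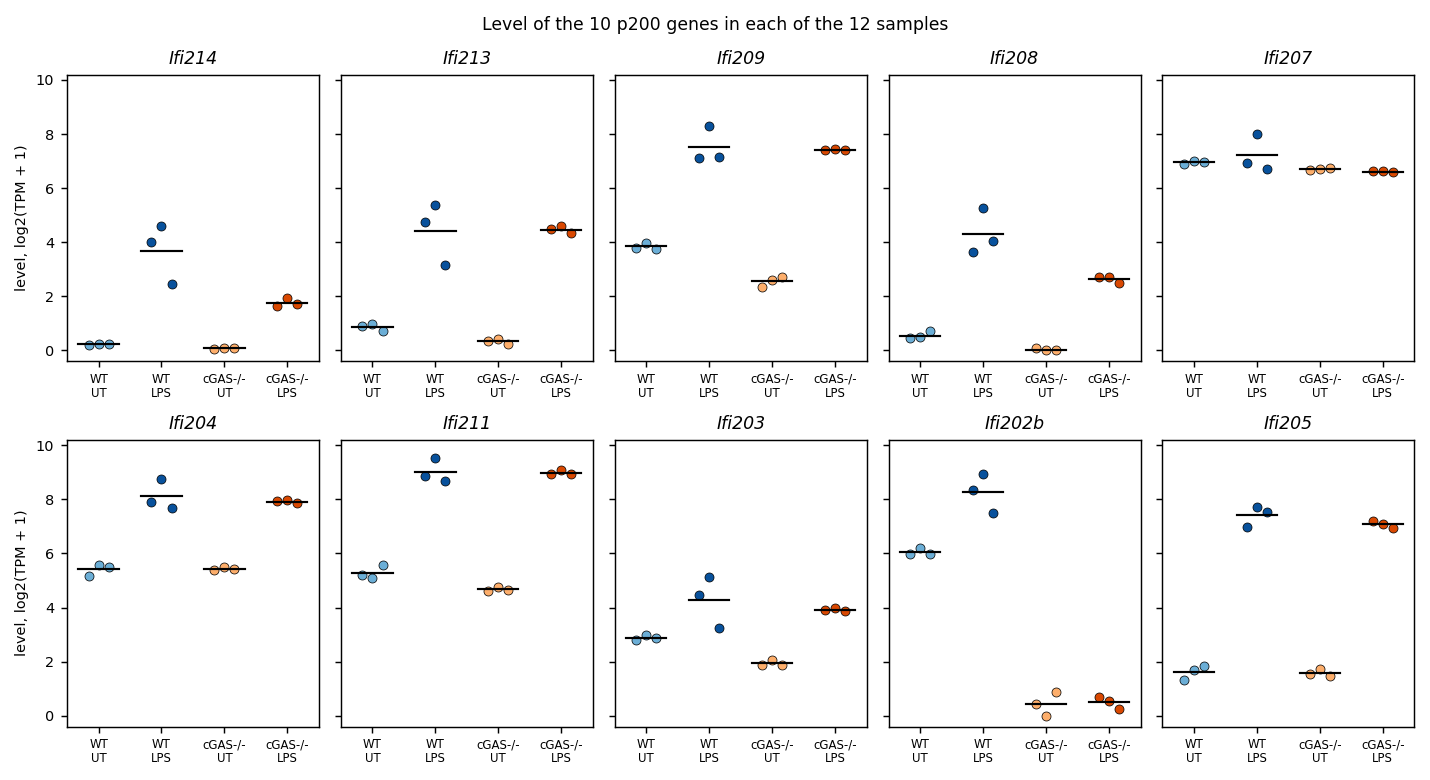
Level of each p200 gene as log2(TPM + 1) in the 12 samples, with a point per sample, 3 per group, and a line at the group mean of the plotted values. Ifi202b is high in both WT groups and below 1 in all cGAS-/- samples, Ifi207 stays near 7 apart from WT LPS replicate 2, and the WT LPS points spread more widely than those of other groups.

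Among untreated samples Ifi202b, which passed the filter through the WT samples alone, was the 1 gene of 10 lower in cGAS-/- cells, at an adjusted p under 0.05 (1.55% of genes) and also past the fold threshold (0.406% of genes). For 8 of 10 genes, all but Ifi204 and Ifi205, every cGAS-/- UT sample was below every WT UT sample, while 19.4% of all genes showed this. Ifi209 was at 13.4 ± 1.26 TPM in WT and 4.91 ± 0.749 TPM in cGAS-/- samples, with a log2 fold change of -1.29 ± 0.31 (SE, adjusted p = 0.0728). Ifi203 was at 6.37 ± 0.506 and 2.86 ± 0.255 TPM, with a log2 fold change of -0.94 ± 0.38 (SE, adjusted p = 0.517). Ifi211 was at 38.5 ± 6.92 and 24.5 ± 1.34 TPM, with a log2 fold change of -0.62 ± 0.26 (SE, adjusted p = 0.582). None of these 3 differences passed the test across all 12 samples. Ifi209 passed in 7 of 23 alternative settings, among them those that leave out WT LPS replicate 1, 2 or 3, median-of-ratios scaling and quantile normalization. Ifi203 passed in 4, among them median-of-ratios scaling and the setting without WT LPS replicate 3 (adjusted p = 0.00682). Ifi208, below 1 TPM in all untreated samples, had a log2 fold change of -0.52 ± 0.33 (SE) in the main test. It passed in 3 of 23, among them a pseudocount of 0.1, with -2.22 (adjusted p = 0.0469), past the fold threshold too. The number of genes lower was 2 without WT LPS replicate 1, 2 without replicate 2 and 3 without replicate 3, against 1.88%, 2.33% and 4.46% of all genes.

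When only the 6 untreated samples were fitted, 7 of the 10 genes were lower in cGAS-/- cells at an adjusted p under 0.05 (Ifi213, Ifi209, Ifi208, Ifi207, Ifi211, Ifi203 and Ifi202b), against 8.30% of all genes. With weights per sample, 6 were lower, against 9.64% of all genes. Both settings remove or reduce the part of the WT LPS samples in the estimate of the spread. The log2 fold changes of Ifi204 and Ifi205, 0.025 and -0.039, had standard errors of 0.28 and 0.25. The median over the 10 genes was -0.52, against -0.033 over all genes.

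Among LPS samples 3 of 10 genes were lower in cGAS-/- cells at an adjusted p under 0.05 (1.07% of genes), and Ifi202b alone passed the fold threshold (0.406% of genes). The other 2 were Ifi208, with a log2 fold change of -1.67 ± 0.33 (SE, adjusted p = 0.0242), and Ifi214, with -1.92 ± 0.42 (SE, adjusted p = 0.0366). For these 3 and Ifi207, every cGAS-/- LPS sample was below every WT LPS sample, against 4.93% of genes. The calls of Ifi208 and Ifi214 were lost in 7 of 23 and 14 of 22 alternative settings, among them the fit of the 6 LPS samples alone. Without WT LPS replicate 3, 4 genes were lower (Ifi214, Ifi208, Ifi203 and Ifi202b), against 5.05% of all genes, with Ifi214 then past the fold threshold too, at -2.54. Without WT LPS replicate 1, 2 were (Ifi208 and Ifi202b), against 1.77%. Without any 1 of the 3 cGAS-/- LPS replicates, Ifi202b alone was lower, against 0.416% to 0.446% of all genes, and the calls of Ifi208 and Ifi214 ended.

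With LPS the samples of both genotypes overlapped for 6 of the 10 genes, Ifi211, Ifi204, Ifi209, Ifi213, Ifi203 and Ifi205. For Ifi211, Ifi204, Ifi209 and Ifi213 the log2 fold changes of cGAS-/- against WT were -0.035, -0.20, -0.11 and 0.039, with standard errors of 0.26, 0.28, 0.31 and 0.43. Differences several times these errors could go undetected, as for untreated Ifi209 at -1.29 ± 0.31 (SE, adjusted p = 0.0728 in limma). For Ifi203 it was -0.36 ± 0.38 (SE, adjusted p = 0.575) and for Ifi205 -0.34 ± 0.25 (SE, adjusted p = 0.432). The sign changed under 1 or more alternative settings for all of these but Ifi205, which stayed lower in cGAS-/- cells in all 23 without passing the test in any. The median was -0.35 over the 10 genes and 0.27 over all genes, and median-of-ratios scaling moved these to -0.86 and -0.016. After that scaling 5 genes were lower, namely Ifi214, Ifi208, Ifi207, Ifi203 and Ifi202b, against 2.90% of all genes.

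Some markers of other cells were also lower in cGAS-/- samples. At an adjusted p under 0.05 they were Igkc of 3 tested B cell markers and Ltf and Ngp of 5 tested neutrophil markers in untreated samples (1.55% of all genes), and Cd79a and Igkc with LPS (1.07% of all genes), where no neutrophil marker passed. Of 3 tested erythroid markers none passed in either comparison, and no dendritic, T or NK cell marker passed the filter on low values. Of 7 B cell markers 6 are listed, with none at 0 in all samples of a group, and their sum was 108 to 134 TPM in WT UT and 19.9 to 28.5 TPM in cGAS-/- UT samples, 30.6 to 44.9 TPM in WT LPS and 3.04 to 8.84 TPM in cGAS-/- LPS samples. Most of the WT UT sum was Igkc, the immunoglobulin kappa constant region, at 62.8, 85.3 and 97.0 TPM. All 7 neutrophil markers are listed and summed to 139 to 213 TPM in WT UT, 52.9 to 125.6 TPM in cGAS-/- UT, 35.5 to 353 TPM in WT LPS and 46.4 to 59.9 TPM in cGAS-/- LPS samples, with Elane at 0 in cGAS-/- UT samples, and the LPS samples of both genotypes overlapped. Erythroid markers summed to 2.21 to 7.25 TPM in WT UT, 3.02 to 10.1 TPM in cGAS-/- UT, 0 to 26.5 TPM in WT LPS and 0.983 to 11.4 TPM in cGAS-/- LPS samples. The part of such cells in the p200 differences between genotypes was not tested.

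**Figure D5:**
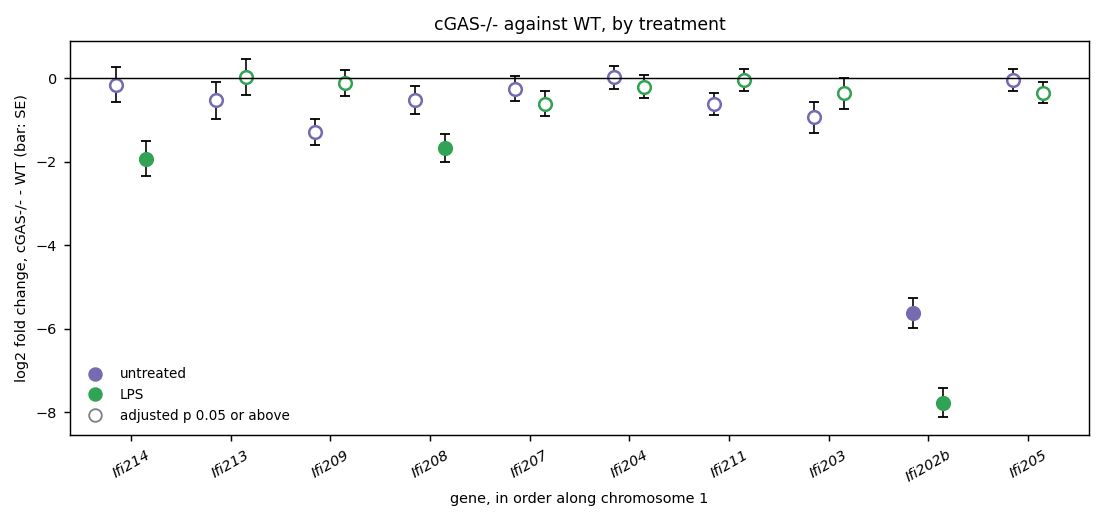
Log2 fold change of cGAS-/- against WT for each p200 gene in untreated (purple) and LPS (green) samples on the log2(TPM + 1) scale, with bars for the SE and open circles for an adjusted p of 0.05 or above. Ifi202b lies at -5.62 and -7.77, Ifi208 and Ifi214 are filled with LPS only, and the other genes lie between -1.29 and 0.039.

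No p200 gene had a difference in LPS response between genotypes that passed correction. At an adjusted p under 0.05 in limma, 0 of 10 genes had a higher and 0 a lower response in cGAS-/- cells, against 0.771% and 0.203% of all genes. At an unadjusted p under 0.05, 3 had a smaller response in cGAS-/- cells (Ifi202b, Ifi214 and Ifi208), against 2.39% of all genes, and 1 a larger one (Ifi209), against 8.66%. The difference of the log2 fold changes was -2.15 ± 0.50 (SE, adjusted p = 0.0824) for Ifi202b, -1.77 ± 0.59 (SE, adjusted p = 0.268) for Ifi214, -1.15 ± 0.47 (SE, adjusted p = 0.399) for Ifi208 and 1.19 ± 0.44 (SE, adjusted p = 0.326) for Ifi209. The direction for Ifi208 depends on the pseudocount, being 0.40 with a pseudocount of 0.1, and the ratio of mean TPM, LPS over UT, was 45.6 in WT and 239.6 in cGAS-/- cells. For Ifi202b it passed in 5 of 22 alternative settings, among them those without WT LPS replicate 2 (adjusted p = 0.0234) or replicate 3 (adjusted p = 0.00286). For Ifi214 it passed in 4, among them the one without WT LPS replicate 3, and for Ifi209 in 1, without WT LPS replicate 2. For Ifi209 the untreated cGAS-/- samples were below the WT ones, while the LPS samples of both genotypes overlapped.

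Relatives of the 10 genes in the cluster (Mndal) or beside it (Ifi206 and Aim2) behaved in part like them. Ifi206 rose with LPS in both genotypes, with 0.887, 1.39 and 1.66 TPM in WT UT, 58.0, 98.3 and 26.8 TPM in WT LPS, 0.197, 0.666 and 0.519 TPM in cGAS-/- UT and 41.1, 42.3 and 40.4 TPM in cGAS-/- LPS samples. Mndal rose from 15.8 ± 0.860 to 55.6 ± 35.2 TPM and from 10.0 ± 0.935 to 36.3 ± 2.49 TPM. Both hold the core GAAATCGAAA, 51 and 54 bases before their starts. Aim2, which encodes the inflammasome sensor of cytosolic DNA and has no core in its window, was at 5.13 to 12.8 TPM in all samples, with log2 fold changes of 0.26 ± 0.29 (SE, adjusted p = 0.487) in WT and 0.54 ± 0.29 (SE, adjusted p = 0.277) in cGAS-/- cells. Between genotypes, none of these 3 passed the adjusted threshold. Ackr1 and Cadm3, 2 genes that flank the cluster, were listed at no more than 0.0878 TPM in any sample.

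Whether interferon induced the p200 genes here was not tested. Ifnb1, the gene of interferon-β, was listed at 0 to 0.301 TPM in the 6 untreated samples. Its levels were 8.43, 7.21 and 9.60 TPM in WT LPS and 3.42, 3.24 and 2.58 TPM in cGAS-/- LPS samples. With LPS it was lower in cGAS-/- cells, with a log2 fold change of -1.20 ± 0.18 (SE, adjusted p = 0.00544). Of 10 tested interferon signalling genes it was the only 1 lower at an adjusted p under 0.05, against 1.07% of all genes. None of the 10 was higher, and their median log2 fold change was -0.16. Of a list of 36 other interferon-stimulated genes, 29 were tested and 7 were not analysed here. LPS raised 26 of the 29 in WT cells, against 4.86% of all genes, and 27 in cGAS-/- cells, against 5.56%, while Ifi27 fell in both.

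Between genotypes, 2 of these 29 were lower in cGAS-/- UT samples (Ifi47 and Slfn1, against 1.55% of all genes) and 4 in cGAS-/- LPS samples (Cxcl10, Igtp, Slfn1 and Tgtp1, against 1.07%), with none higher. Cxcl10, a chemokine gene, was at 127, 131 and 93.8 TPM in WT LPS and 45.7, 42.1 and 39.7 TPM in cGAS-/- LPS samples. Of 16 genes of DNA sensing, inflammasomes and the responses downstream of them, 14 were tested. Of these, 8 rose in WT and the same 8 in cGAS-/- cells (Casp4, Ifi35, Ikbke, Il1b, Irf7, Nlrp3, Trex1 and Zbp1), against the same 4.86% and 5.56% of all genes, and none fell. With LPS, 2 of the 14 (Casp4 and Cgas) were lower in cGAS-/- cells, against 1.07% of all genes, and Il1b was higher. In untreated cells Cgas, the targeted gene, was the only one of the 14 that differed. It was lower, against 1.55% of all genes. Sting1, Nlrc4, Ifnar1 and Ifnar2 were not analysed here.

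The genes whose mean-centred profile over the 12 samples was most like the mean of the p200 genes were Cst7, Cmpk2, Sp110, Fcgr4, Casp4, Oasl1, Rsad2 and Tgtp2, with Pearson r from 0.983 to 0.993. These correlations describe samples that share 2 treatments and 2 genotypes, and carry no test. For Ifi202b alone the most alike were Acaa1b (0.976), Gm42546 (0.963) and Gm10800 (0.952), and for Ifi207 they were Ccdc173 (0.935), Rhou (0.915) and Depp1 (0.898). For each of the other 8 genes the most alike reached 0.985 or more, such as Cxcl11 for Ifi214, Gbp6 for Ifi213 and Dhx58 for Ifi209 and Ifi211.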

How the data were processed

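RNA of 12 samples was sequenced. The authors used fastp for trimming, STAR for alignment to GRCm39, kallisto for quantification, and edgeR with limma for group comparisons, and the versions of the first 3 tools are not given in the sources used here. The deposited values were taken as TPM that the authors averaged over the transcripts of a symbol. The unit is inferred, since no source names it. The table ends within chromosome 13.

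Values were tested as log2(TPM + 1) with limma 3.58.1 (R 4.3.3), a variance trend and a mean per group over all 12 samples, for genes at 1 TPM or more in at least 3 samples. Calls used a Benjamini-Hochberg adjusted p under 0.05, alone or with a log2 fold change beyond 2. With 3 samples against 3, an exact permutation test cannot give a p below 0.1 and was not used for calls. The fit was tested on simulated data. Other pseudocounts, filters, scalings, samples, weights and a replicate block were tried. Named genes were all 10 members, the listed relatives and neighbours, and the genes most like them, of which some are not reported here. The members and lists were chosen with earlier results of these data known, so they give no independent support. Starts came from GENCODE M39, and transcripts were compared with blastn 2.17.0+. No 2 samples held identical values.

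The labels also name neutrophils in the extraction step and knockout mice in the growth step of WT samples, and give another sequencer than the design text.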

Additional observations from a re-analysis of the deposited data

How the results depend on the processing

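The calls of Ifi202b by genotype, and of the 8 genes past both thresholds with LPS in WT cells, had the same direction and an adjusted p under 0.05 in every alternative that was run. The number of p200 genes higher with LPS stayed within 1.5 times its main value throughout. With the replicate block, 9 genes were higher with LPS in WT cells (4.59% of all genes) and 8 in cGAS-/- cells (5.05%). In that setting 1 was lower in cGAS-/- UT (1.17%) and 3 in cGAS-/- LPS samples (0.822%). None of the 10 differed in response (0.396% of all genes higher and 0.132% lower). Deviations from the group means of same-numbered samples had correlations of -0.035 to 0.047 over 18 pairs, so the numbers were not taken to pair samples. The number of genes lower in cGAS-/- UT samples was 1 in the main test. It was 2 with a pseudocount of 0.1 (0.690% of all genes) or quantile normalization (1.64%). After median-of-ratios scaling it was 3 (1.59%), and with weights per sample 6 (9.64%). From the samples compared alone it was 7 (8.30%), and with a sample left out 1 to 3 (0.822% to 4.46%). The number lower in cGAS-/- LPS samples was 3 in the main test. It was 1 with a pseudocount of 0.1 (0.781% of all genes), without a filter (0.305%) or scaled to a common total (0.771%). From the samples compared alone it was also 1 (0.0406%), and after median-of-ratios scaling 5 (2.90%). With a sample left out it was 1 to 4 (0.416% to 5.05%), being 1 whichever of the cGAS-/- LPS replicates was dropped. The number with a smaller response in cGAS-/- cells was 0 in the main test. It was 1 with a pseudocount of 5 (0.426% of all genes) or weights per sample (0.619%). After median-of-ratios scaling (0.507%) or quantile normalization (0.599%) it was 2, and with a sample left out 0 to 2 (0.0812% to 1.99%). The number with a larger response was 0 to 1, being 1 without WT LPS replicate 2 (14.6%). The cause of these changes was not tested. Ifi214 has no value with the filter at 5 TPM, which it did not pass, and the difference in response, which needs all 4 groups, has none from the samples compared alone.

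Log2 fold changes that changed sign were uncalled in the main test. With scaling to a common total, the value was -0.020 (Ifi207, LPS against UT in WT), -0.050 (Ifi204, cGAS-/- against WT in UT), 0.024 (Ifi209, cGAS-/- against WT with LPS) and 0.095 (Ifi211, cGAS-/- against WT with LPS). With median-of-ratios scaling, the value was 0.18 (Ifi207, LPS against UT in cGAS-/-) and -0.45 (Ifi213, cGAS-/- against WT with LPS). With quantile normalization, the value was 0.017 (Ifi214, cGAS-/- against WT in UT), 0.034 (Ifi205, cGAS-/- against WT in UT), -0.20 (Ifi213, cGAS-/- against WT with LPS) and 0.056 (Ifi211, cGAS-/- against WT with LPS). With a pseudocount of 5, the value was -0.010 (Ifi213, cGAS-/- against WT with LPS). With weights per sample, the value was -0.36 (Ifi213, cGAS-/- against WT with LPS). With a pseudocount of 0.1, the value was 0.40 (Ifi208, the difference between genotypes). With each sample left out in turn, values that changed sign ran from -0.13 to 0.51 (Ifi207) for LPS against UT in WT, -0.16 to 0.27 (Ifi202b) for LPS against UT in cGAS-/-, -0.095 to 0.10 (Ifi204) and -0.19 to 0.074 (Ifi205) for cGAS-/- against WT in UT, -0.60 to 0.52 (Ifi213), -0.31 to 0.27 (Ifi209), -0.41 to 0.12 (Ifi204), -0.21 to 0.22 (Ifi211) and -0.88 to 0.071 (Ifi203) for cGAS-/- against WT with LPS, -0.071 to 1.05 (Ifi213), -0.60 to 0.039 (Ifi207) and -0.43 to 0.099 (Ifi204) for the difference between genotypes. The unknown read depth limits the values of Ifi202b in cGAS-/- cells and of Ifi208, Ifi213 and Ifi214 in untreated cells, all below 1 TPM. Shared sequence limits every p200 gene but Ifi207. By the highest share over the transcripts of a gene, it limits Ifi202b least, over 8.995% of its transcript. Of the longest transcripts, that of Ifi214 is matched over 5.69%, and Ifi205 is matched only in its shorter transcripts.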
